A study of Mus musculus with 16 samples.

Results

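The 9 genes described here are App (amyloid precursor protein), its relatives Aplp1 and Aplp2, the beta-secretase gene Bace1, the alpha-secretase gene Adam10, and Psen2, Ncstn, Aph1a and Psenen, which encode subunits of the gamma-secretase complex. They were picked out by name, with earlier results of these data known, from a table of raw counts of 54532 entries. All 9 were found once each, and all 9 were among the 17736 genes that passed the filter on low counts. The 16 RNA-seq libraries came from the brains of female mice aged 9 months and are labelled as frontal cortex, although the series text names another brain region, the hippocampus. The libraries form 4 groups of 4. The Ch25h+/+ Tau- group is the baseline. Ch25h+/+ Tau+ animals are read here as carrying a tau transgene. The Ch25h-/- Tau- group lacks Ch25h, the gene of cholesterol 25-hydroxylase, and the Ch25h-/- Tau+ group combines the loss of Ch25h with the tau status. The labels give neither the tau construct nor its promoter, and they do not say whether the libraries of a group come from separate mice, so p-values measure only the spread between these libraries, which may be technical.

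App, Aplp1 and Aplp2 encode membrane proteins of neurons and other cells that are cut by the same classes of protease. ADAM10 cuts APP within the amyloid-beta stretch, which prevents release of that peptide, while BACE1 cuts at its start. The remaining membrane stub is then cut by gamma-secretase, in which a presenilin (here Psen2) is the catalytic subunit, nicastrin (Ncstn) and APH1 (Aph1a, with the paralogs Aph1b and Aph1c) help to bind substrate and build the complex, and PEN-2 (Psenen) completes it. APLP1 and APLP2 are also secretase substrates but do not contain the amyloid-beta sequence. Protein maturation and trafficking, which RNA counts do not measure, also control these proteases.

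RefSeq promoter windows (build GRCm38.p6) were matched for 8 of the 9 genes, with 10 start sites in all. The 250 bases before the start of App, of the pair with the lowest log2 fold changes for Ch25h loss in Tau- (Aplp1 and Aph1a) and of Adam10, whose difference had the other sign, are shown 5′ to 3′, with GC boxes (GGGCGG, searched on both strands) in capitals.
App, chr16:85173708-85173957, minus strand: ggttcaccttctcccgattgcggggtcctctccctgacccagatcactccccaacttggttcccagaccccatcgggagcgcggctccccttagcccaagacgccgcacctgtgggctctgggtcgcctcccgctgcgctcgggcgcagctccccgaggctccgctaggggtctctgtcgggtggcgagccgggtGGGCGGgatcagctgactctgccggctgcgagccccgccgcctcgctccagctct
Aplp1, chr7:30445583-30445832, minus strand: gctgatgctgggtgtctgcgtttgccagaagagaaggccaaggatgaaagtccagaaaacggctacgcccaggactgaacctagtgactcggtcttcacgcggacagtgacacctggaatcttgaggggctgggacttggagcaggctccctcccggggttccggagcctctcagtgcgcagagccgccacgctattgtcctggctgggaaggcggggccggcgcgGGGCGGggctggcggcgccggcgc
Aph1a, chr3:95893671-95893920, plus strand: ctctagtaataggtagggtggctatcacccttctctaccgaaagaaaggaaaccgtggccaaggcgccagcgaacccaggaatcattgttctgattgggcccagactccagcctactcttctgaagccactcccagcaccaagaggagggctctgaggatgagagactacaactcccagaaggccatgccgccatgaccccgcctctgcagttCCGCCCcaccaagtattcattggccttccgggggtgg
Adam10, chr9:70678732-70678981, plus strand: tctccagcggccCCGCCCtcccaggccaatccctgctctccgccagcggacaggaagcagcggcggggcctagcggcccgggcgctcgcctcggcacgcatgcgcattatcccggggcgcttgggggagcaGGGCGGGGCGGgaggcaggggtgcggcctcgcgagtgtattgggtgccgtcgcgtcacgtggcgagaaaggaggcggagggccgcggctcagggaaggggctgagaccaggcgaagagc
A GC box lay in 6 of the 10 windows and in at least 1 window of 6 of the 8 genes, against 32.7% of 32851 mouse promoter windows of this length. It lay 55 bases before the RefSeq start of App, 24 before that of Aplp1 and 37 before that of Aph1a. Adam10 had 3, at 238, 119 and 114 bases, of which the last 2 overlap by 1 base. The TATA box TATAAA was in 0 of the 10 windows (12.4% of all windows, both strands). The E-box CACGTG was in 2 of 10, in Adam10 and in the second start of Psen2 (6.02% of all windows). The App window was 70.8% G or C and that of Adam10 74.0%, against a median of 52.4% over all windows. Aplp1 and Aph1a, which lay on the same side in the comparisons of Ch25h loss, and Adam10, which lay on the other, all carried a GC box.

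The 9 genes lie on 5 chromosomes in GENCODE M21 (GRCm38). Aplp1 (30434982 to 30445535) and Psenen (30561863 to 30563627) are near neighbours on chromosome 7. Bace1 (45838580 to 45864399), Adam10 (70678997 to 70780229) and Aplp2 (31149557 to 31211815) are on chromosome 9, Psen2 (180227004 to 180263438) and Ncstn (172066013 to 172082795) on chromosome 1, App (84949685 to 85173766) on chromosome 16 and Aph1a (95893969 to 95898288) on chromosome 3. Gene starts differ between GENCODE and the RefSeq windows above. The GC box of the App window lies inside the GENCODE span of App. Some exons of the 9 genes overlap genes of the opposite strand. Of the joined exon length, Bace1 shares 15.4% with Rnf214, Aph1a 12.9% with Car14, Psenen 9.33% with U2af1l4 and Ncstn 4.91% with Copa. The use of strand in counting is not given in the sources used here, so reads in these stretches cannot be assigned with certainty. Car14 was read at 4.28 to 12.3 CPM (counts scaled to a common library size) and U2af1l4 at 4 to 11 counts in any library, but Rnf214 reached 35.2 to 53.0 CPM and Copa 167 to 253 CPM.

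Depth was 15530352 to 25602500 counts per library. Ch25h had 0 counts in all 8 Ch25h-/- libraries and 5 to 30 in the Ch25h+/+ libraries. Prnp, whose promoter drives some tau transgenes, was at 708 to 839 CPM in the Tau- libraries and 1414 to 1935 CPM in the Tau+ libraries. Mapt, the mouse tau gene, overlapped between the tau groups. In Ch25h+/+ it was at 526 to 591 CPM in Tau- and 468 to 560 CPM in Tau+. In Ch25h-/- it was at 444 to 517 CPM in Tau- and 495 to 550 CPM in Tau+. Of the 8 Ch25h-/- libraries, 7 were rich in the ribosomal RNA transcript CT010467.1 (2289 to 5684 CPM on total counts), and the other 9 libraries, with all of Ch25h+/+ and Ch25h-/- Tau+ replicate 1, had 111 to 475. Markers of neurons summed to 4430 to 5841 CPM, those of cortex to 471 to 608 CPM and those of hippocampus to 115 to 273 CPM. Striatum markers summed to 133 to 275 CPM and those of choroid plexus to 14.8 to 2727 CPM. All members of these lists were detected in every group. The lists hold different genes, so their sums do not compare brain regions. In bulk tissue, fewer cells of a type and less RNA per cell cannot be told apart.

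**Figure D1:**
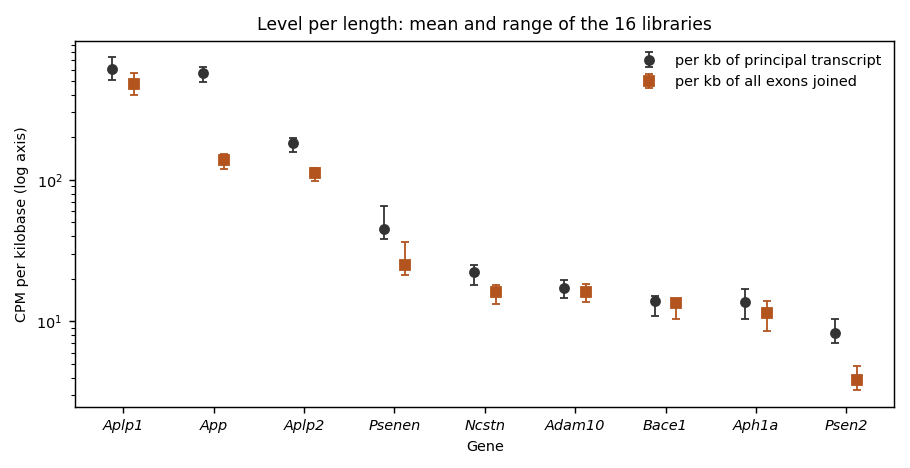
Level of each gene in CPM per kilobase on a log axis, as the mean (symbol) and the range (bar) of the 16 libraries, with length taken as the principal transcript (circles) or as all exons joined (squares). Aplp1, App and Aplp2 lie above the secretase genes, and Psen2 is lowest, on both scales.

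The precursor family was far more abundant than its proteases. Per kilobase of principal transcript, Aplp1 was highest at 611 ± 60.4 CPM (SD, n = 16 libraries), followed by App at 568 ± 40.8 and Aplp2 at 181 ± 11.7. Among the protease genes Psenen led with 44.8 ± 6.11 CPM per kilobase, then Ncstn (22.2 ± 1.92), Adam10 (17.3 ± 1.63), Bace1 (14.0 ± 1.13), Aph1a (13.7 ± 1.70) and Psen2 (8.22 ± 0.833). Over the 16 libraries the ranges of neighbours in this order did not overlap for App against Aplp2, Aplp2 against Psenen, Psenen against Ncstn, and Aph1a against Psen2. Aplp1 and App overlapped, with Aplp1 the higher in 15 of 16 libraries, and Bace1 and Aph1a were not separated, with Bace1 the higher in 10 of 16. With all exons joined as the length the order was the same, but App was at 139 CPM per kilobase, since its joined exons span 12996 bases against 3176 in the principal transcript, and Ncstn and Adam10 were then not separated (16.2 and 16.1).

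Within the family, Aplp1 gave 44.8% ± 2.17 of the summed level per kilobase, App 41.8% ± 1.39 and Aplp2 13.4% ± 0.949 (SD, n = 16), with the principal transcript as the length. With all exons joined the shares were 65.3% ± 2.12, 19.2% ± 0.929 and 15.5% ± 1.30, so the App share depends on the length used. The shares by group that follow are per kilobase of principal transcript. The App share ranged over 38.7% to 42.3% without tau and 39.5% to 42.7% with tau in Ch25h+/+, against 42.0% to 43.4% and 42.0% to 43.7% in the Tau- and Tau+ groups of Ch25h-/-. The Aplp1 share ran the other way, with 44.8% to 49.0% and 43.5% to 49.2% in Ch25h+/+ and 43.1% to 44.0% and 41.9% to 44.6% in Ch25h-/-. The Aplp2 share was 12.2% to 12.9% and 11.2% to 13.8% in Ch25h+/+ and 13.1% to 14.9% and 13.4% to 14.5% in Ch25h-/-. The shares add up to the whole, so a lower Aplp1 share raises the others. Mean App was not higher in Ch25h-/-, at 1701 against 1820 CPM in Tau- and 1833 against 1867 CPM in Tau+. The highest Aplp1 share of a Ch25h-/- library was that of Ch25h-/- Tau+ replicate 1, the Ch25h-/- library that is poor in ribosomal RNA.

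None of the 9 genes changed past the threshold in any of the 5 comparisons (edgeR quasi-likelihood test, Benjamini-Hochberg over 17736 genes, threshold 0.05). The tau effect in Ch25h+/+ asks what the tau status changes where Ch25h is present, and 0 of 9 passed, where 1.56% of all genes did. For the tau effect in Ch25h-/- the count was 0 of 9 against 0.0395%, and for the interaction, which asks whether these effects differ, 0 of 9 against 0.0338%. Ch25h loss was not called in any member either, with 0 of 9 in Tau+ against 3.55% of all genes and 0 of 9 in Tau- against 1.03%. At an unadjusted p under 0.05 the members numbered 0 for the tau effect in Ch25h+/+ (9.38% of all genes), 0 in Ch25h-/- (3.68%) and 0 for the interaction (4.13%). For Ch25h loss, Aplp1 and Aph1a reached it in both tau states, 2 of 9 against 23.9% of all genes in Tau+ and 20.9% in Tau-. DESeq2 and limma-voom gave 0 members for both tau effects and the interaction, but each gave 1 of 9 for Ch25h loss in Tau+ (Aph1a) and 1 of 9 in Tau- (Aplp1). Of all genes with an adjusted p, DESeq2 called 9.13% in Tau+ and 9.25% in Tau-, and limma-voom 10.6% and 7.83%. With only 9 genes, the members' counts lie near these background shares.

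The intervals show what sizes the libraries allow. Over the 9 genes the 95% intervals of the tau effect reached from -0.24 to 0.36 on the log2 scale in Ch25h+/+ and from -0.23 to 0.28 in Ch25h-/-. For Ch25h loss they reached from -0.50 to 0.34 in Tau+ and from -0.43 to 0.36 in Tau-. The median log2 fold change of the 9 was 0.057 and 0.020 for the tau effects in Ch25h+/+ and Ch25h-/- (all genes -0.008 and 0.008), and -0.131 and -0.097 for Ch25h loss in Tau+ and Tau- (all genes 0.004 and 0.009). The comparisons share groups of libraries, so their values are not independent. The spread of the members between replicates was moderate, with a median within-group coefficient of variation of 7.51%, against 9.13% for genes with a mean of at least 10 CPM.

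**Figure D2:**
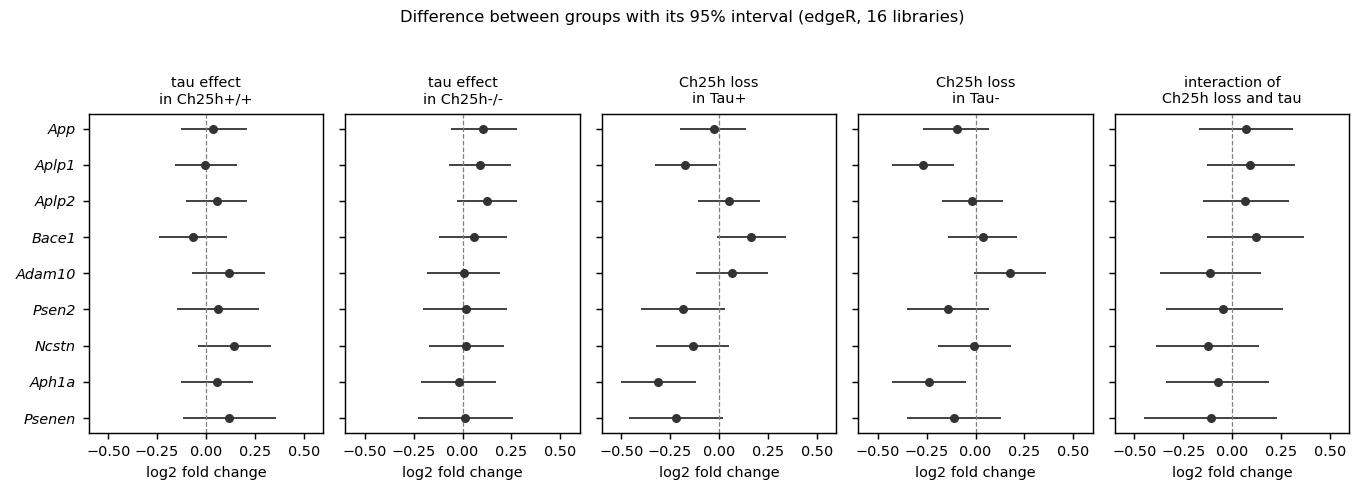
Log2 fold change of each gene in the 5 comparisons (points) with the 95% interval of the fit to 16 libraries (bars). The intervals of the tau effects and the interaction all include 0, and those of Aplp1 and Aph1a lie below 0 for Ch25h loss in both tau states.

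App, the amyloid precursor, was at 1818, 1982, 1866 and 1613 CPM in Ch25h+/+ Tau- and at 1868, 1920, 1928 and 1754 CPM in Ch25h+/+ Tau+. In Ch25h-/- it was at 1578, 1775, 1566 and 1886 CPM in Tau- and at 1840, 1906, 1698 and 1886 CPM in Tau+. The groups overlapped in every comparison, and the lowest and the highest library of the series differed by a factor of 1.27. Its log2 fold change with tau was 0.04 (95% interval -0.13 to 0.21) in Ch25h+/+ and 0.11 (-0.06 to 0.28) in Ch25h-/-. With Ch25h loss it was -0.03 (-0.20 to 0.14) in Tau+ and -0.10 (-0.27 to 0.07) in Tau-. None of these 4 differences passed.

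Aplp1, the family member most restricted to the nervous system, was at 1514, 1552, 1594 and 1505 CPM in Ch25h+/+ Tau- and at 1195, 1333, 1198 and 1396 CPM in Ch25h-/- Tau-. These groups did not overlap, which was the case for 2 of the 9 members in this comparison (Aplp1 and Aph1a) and for 16.2% of all genes. The log2 fold change was -0.27 (standard error 0.08, adjusted p 0.0773 in the edgeR quasi-likelihood test). With offsets corrected for GC content, the log2 fold change with Ch25h loss was -0.06 in Tau- and 0.05 in Tau+. In Tau+ the values were 1716, 1442, 1502 and 1488 CPM in Ch25h+/+ and 1439, 1346, 1264 and 1403 CPM in Ch25h-/-. They again did not overlap, by a gap of a few CPM between 1442 and 1439, as in 1 of 9 members and 10.2% of all genes, with a log2 fold change of -0.17 (standard error 0.08, adjusted p 0.179 in the same test). Within a Ch25h genotype the tau groups overlapped, with log2 fold changes of -0.004 and 0.09, and none of the 9 members was without overlap for the tau effect in Ch25h+/+ (5.86% of all genes) or in Ch25h-/- (2.14%).

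Aplp2, expressed widely across tissues, spanned a factor of 1.25 over the 16 libraries. In Ch25h+/+ the Tau- libraries gave 647, 692, 643 and 588 CPM, while the Tau+ libraries gave 608, 711, 688 and 664 CPM. In Ch25h-/- these were 639, 672, 575 and 653 CPM without tau, and 672, 717, 660 and 717 CPM with it. All groups overlapped, and the log2 fold changes were 0.06 and 0.12 with tau in Ch25h+/+ and Ch25h-/-, and 0.05 and -0.02 with Ch25h loss in Tau+ and Tau-.

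**Figure D3:**
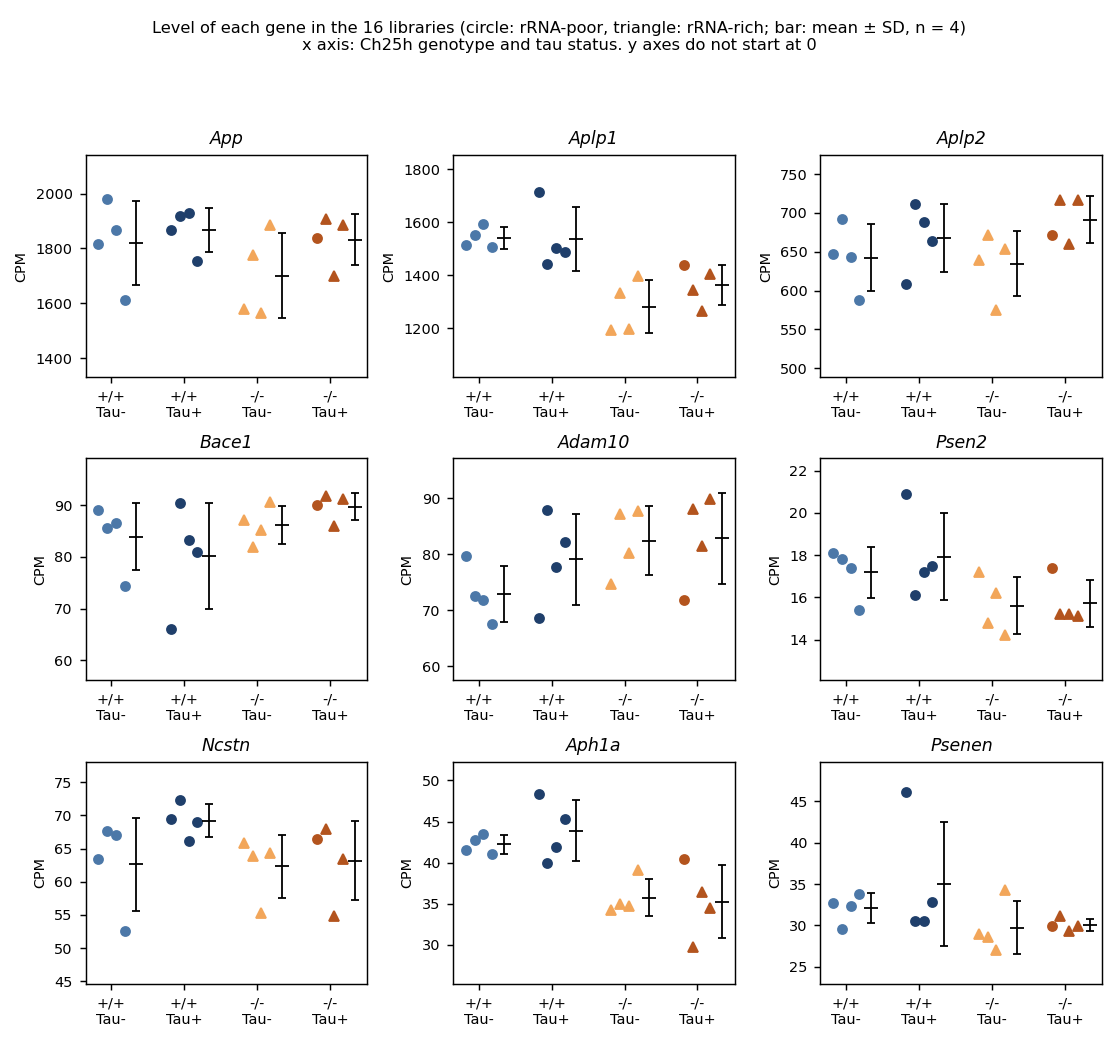
CPM of each gene in the 16 libraries by Ch25h genotype and tau status, with the mean and SD of each group (n = 4) and the library class by ribosomal RNA (circles poor, triangles rich). Aplp1 and Aph1a are lower in Ch25h-/- Tau- than in Ch25h+/+ Tau- with no overlap, and 1 library of Ch25h+/+ Tau+ stands at 46.1 CPM for Psenen.

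Bace1, the beta-secretase, was at 89.1, 85.5, 86.6 and 74.4 CPM in Ch25h+/+ Tau- and 66.0, 90.4, 83.3 and 80.9 CPM in Ch25h+/+ Tau+. The Ch25h-/- libraries gave 87.1, 81.9, 85.2 and 90.6 CPM in Tau- and 90.0, 91.7, 85.9 and 91.2 CPM in Tau+. The groups overlapped throughout, and the widest difference was Ch25h loss in Tau+ (log2 fold change 0.16, 95% interval -0.01 to 0.34). Part of it rests on Ch25h+/+ Tau+ replicate 1, the lowest library for Bace1, since the log2 fold change without it was 0.07. Rnf214, whose exons overlap those of Bace1, had a log2 fold change of 0.26 in this comparison (adjusted p 0.0873, edgeR quasi-likelihood test), and its part in the Bace1 value was not tested.

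Adam10, the main alpha-secretase of neurons, was at 79.6, 72.5, 71.9 and 67.6 CPM in Ch25h+/+ Tau- and 68.6, 87.8, 77.7 and 82.2 CPM in Ch25h+/+ Tau+. In Ch25h-/- it was at 74.7, 87.1, 80.2 and 87.7 CPM in Tau- and 71.9, 88.1, 81.5 and 89.9 CPM in Tau+. All groups overlapped. The log2 fold change was 0.12 (95% interval -0.07 to 0.30) with tau in Ch25h+/+ and 0.18 (-0.01 to 0.36) with Ch25h loss in Tau-. The latter was -0.09 with a covariate for the ribosomal RNA class of the library and 0.03 with offsets corrected for GC content. With Ch25h loss in Tau+ it was 0.07, and -0.14 and -0.06 under these settings.

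The ratio of Adam10 to Bace1 within a library, per kilobase, was 1.10 to 1.20 without tau and 1.23 to 1.37 with tau in Ch25h+/+, with no overlap. For Adam10 to Bace1 the Ch25h-/- libraries gave overlapping ranges, 1.13 to 1.40 without tau and 1.05 to 1.30 with tau. Of the 36 ratios between members, 3 had no overlap for tau in Ch25h+/+ and 0 in Ch25h-/-. For Ch25h loss the counts were 3 in Tau+ and 12 in Tau-. The ratios reuse the same 9 genes. Ratios over all genes were not computed, so these counts have no background share. The ratio of Adam10 to Bace1 was not tested, and neither of its genes passed the threshold alone.

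Aph1a, a scaffold subunit of gamma-secretase, had the widest difference of the 9. It was at 41.5, 42.7, 43.5 and 41.1 CPM in Ch25h+/+ Tau- and at 34.2, 34.9, 34.7 and 39.1 CPM in Ch25h-/- Tau-, with no overlap. In Tau+ it was at 48.4, 40.0, 41.9 and 45.3 CPM in Ch25h+/+ and at 40.4, 29.7, 36.4 and 34.5 CPM in Ch25h-/-, where only replicate 1, the library poor in ribosomal RNA, reached the Ch25h+/+ range. The log2 fold change with Ch25h loss was -0.31 in Tau+ (standard error 0.09, adjusted p 0.0595) and -0.24 in Tau- (standard error 0.09, adjusted p 0.143), in the edgeR quasi-likelihood test. Without Ch25h-/- Tau+ replicate 1 the value in Tau+ passed (adjusted p 0.0154, edgeR quasi-likelihood test), as it did without Ch25h+/+ Tau+ replicate 2 (0.0307). The first of these fits called 1691 of all genes in Tau+, against 629 with all 16 libraries. It left no Ch25h-/- library poor in ribosomal RNA. With the covariate for ribosomal RNA class Aph1a was at -0.12 in Tau+ and 0.03 in Tau-, and with GC-corrected offsets at -0.22 and -0.16. The paralogs Aph1b and Aph1c, named here after their values were seen, had log2 fold changes of the other sign. Aph1b was at 0.32 in Tau+ (adjusted p 0.0895, with no overlap of the groups) and 0.24 in Tau- (0.214), and Aph1c at 0.25 (0.285) and 0.16 (0.544), none of which passed in the edgeR quasi-likelihood test. With limma-voom Aph1b passed in Tau+, where 10.6% of all genes did. Aph1b and Aph1c are close copies, so the split of reads between them is uncertain. Car14, which overlaps the Aph1a exons, had log2 fold changes of -0.14 and -0.23 at a much lower level (adjusted p 0.803 and 0.679, edgeR quasi-likelihood test).

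Within 5 Mb of Aph1a 125 genes were tested, of which 4 rose and 1 fell with tau in Ch25h+/+ (4%), and 0 passed in Ch25h-/-. The genes called in Ch25h+/+ were Ctss, Scnm1, Tent5c, Fcgr1 and Tmod4. On the whole of chromosome 3, 20 rose and 9 fell of 907 tested in Ch25h+/+ (3.2%). Of all genes, 261 rose and 16 fell in this comparison (1.56%). In Ch25h-/- 2 rose and 0 fell on chromosome 3 (0.221%), where 0.0395% of all genes passed. Ctss (cathepsin S) and Fcgr1 (an Fc receptor) are known from microglia, and the 6 microglial markers summed to 441 to 559 CPM in Ch25h+/+ with tau against 292 to 312 CPM without it. The part of cell types or of position in these calls was not tested. Aph1a itself had log2 fold changes with tau of 0.06 (95% interval -0.13 to 0.24) and -0.02 (-0.21 to 0.17).

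Psenen, the smallest subunit, was at 32.7, 29.6, 32.4 and 33.8 CPM in Ch25h+/+ Tau- and 46.1, 30.5, 30.5 and 32.8 CPM in Ch25h+/+ Tau+. In Ch25h-/- it was at 29.0, 28.6, 27.0 and 34.3 CPM in Tau- and 29.9, 31.1, 29.3 and 29.9 CPM in Tau+. Replicate 1 of Ch25h+/+ Tau+ stood apart from every other library. With it the log2 fold change was 0.12 for tau in Ch25h+/+ and -0.22 for Ch25h loss in Tau+, and without it -0.03 and -0.07. With GC-corrected offsets Ch25h loss in Tau+ was at -0.14 for Psenen. The same library was the highest of the 16 for Aplp1, Psen2 and Aph1a and the lowest for Bace1.

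Psen2, which encodes a catalytic subunit, was at 18.1, 17.8, 17.4 and 15.4 CPM in Ch25h+/+ Tau- and 20.9, 16.1, 17.2 and 17.5 CPM in Ch25h+/+ Tau+. It was at 17.2, 14.8, 16.2 and 14.2 CPM in Ch25h-/- Tau- and 17.4, 15.2, 15.2 and 15.1 CPM in Ch25h-/- Tau+. All groups overlapped, with log2 fold changes for Ch25h loss of -0.18 in Tau+ (95% interval -0.40 to 0.03) and -0.14 in Tau- (-0.35 to 0.07). With the class covariate these were -0.04 and 0.06, and with GC-corrected offsets -0.06 and -0.03. It had 234 to 446 counts per library, the fewest of the 9.

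Ncstn, the substrate-binding subunit, was at 63.4, 67.6, 67.1 and 52.5 CPM in Ch25h+/+ Tau-, while Ch25h+/+ Tau+ libraries gave 69.5, 72.3, 66.1 and 69.0 CPM. For Ch25h-/- the values were 65.8, 63.9, 55.3 and 64.4 CPM (Tau-) and 66.5, 68.0, 54.8 and 63.5 CPM (Tau+). The groups overlapped in every comparison. Its log2 fold change with tau was 0.14 in Ch25h+/+ (95% interval -0.04 to 0.33), the widest of the 9 in this comparison, and 0.02 in Ch25h-/-. The difference of these effects was -0.12 (-0.39 to 0.14). Leaving out 1 library gave 0.07 to 0.19 for tau in Ch25h+/+. With Ch25h loss Ncstn was at -0.13 in Tau+ and -0.01 in Tau-. These were -0.06 and 0.09 with the class covariate, and -0.10 and 0.00 with GC-corrected offsets.

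The members' differences with Ch25h loss were ordered roughly by the GC content of their transcripts. Aplp1, with 59.7% GC, and Psen2, Aph1a and Psenen, with 54.9%, 53.7% and 53.1%, had negative log2 fold changes in both tau states, and Adam10, with 44.2%, had positive ones, none of which passed in the edgeR quasi-likelihood test. App, with 48.7% GC, was negative in both (-0.03 in Tau+ and -0.10 in Tau-) and Bace1, with 52.0%, positive in both (0.16 and 0.04), so the order was not strict. Over the 9 genes the Spearman correlation of GC content with the log2 fold change was -0.817 in Tau- and -0.667 in Tau+, given as a description of 9 points that share the same libraries. Over the 17598 genes with a known GC content it was -0.551 and -0.483. GC-corrected offsets moved Aplp1 from -0.27 to -0.06 in Tau- and from -0.17 to 0.05 in Tau+. The same offsets moved App and Bace1 farther from 0. App went to -0.15 in Tau- and -0.06 in Tau+, and Bace1 to 0.06 in Tau- and 0.21 in Tau+. With the class covariate Aplp1 was at -0.16 and -0.10. Since no Ch25h+/+ library was rich in ribosomal RNA and only 1 Ch25h-/- library was poor in it, Ch25h genotype and library class can hardly be told apart.

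**Figure D4:**
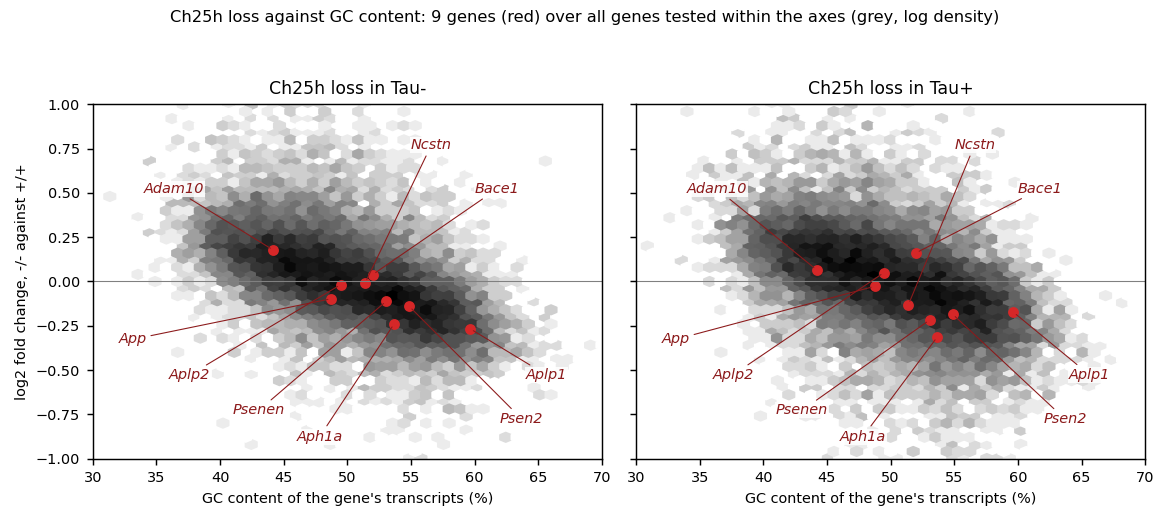
Log2 fold change of Ch25h loss against GC content of each gene's transcripts in percent, in Tau- (left) and Tau+ (right), with the 9 genes in red over the density of all genes tested in grey. The GC-rich Aplp1 lies low and the GC-poor Adam10 high, along the slope of all genes.

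Over the 16 libraries the genes most like each member were named by Pearson correlation of log2 CPM among 11098 genes. App was most like Scrn1 (r 0.875), Nceh1 (0.871) and Tox2 (0.870). Aplp1 was most like Rnf187 (0.970), Cfl1 (0.968), which encodes cofilin, and Nudt18 (0.968), and Aplp2 most like Hs2st1 (0.860), Ptprm (0.858) and Pcnx4 (0.847). Bace1 was most like Cds2 (0.956), Cmip (0.950) and Mfsd6 (0.942), and Adam10 most like Btbd1 (0.897), Clcn3 (0.897) and Usp25 (0.870). Among the gamma-secretase genes, Psenen was most like the ribosomal protein gene Rpl27a (0.944), Mif (0.943) and Ap2s1 (0.938), Psen2 like Amdhd2 (0.937), Mcat (0.902) and Ppp1r14b (0.882), Ncstn like Gm5124 (0.878), Ubr7 (0.852) and Eif3c (0.817), and Aph1a like Wdr89 (0.930), Ppp1r35 (0.928) and Rab1b (0.924). The libraries share depth and class. Of the 27 pairs, 26 had a lower r in at least 1 of the library classes by ribosomal RNA than over all 16 libraries, and 9 in both, as for Aph1a and Rab1b (0.864 in the 9 poor and 0.584 in the 7 rich libraries).

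Between members, 72 relations were computed, 36 pairs in each library class, and 0 passed after Benjamini-Hochberg adjustment (permutation tests, two-sided, of Pearson's r). App and Aplp2 had r of 0.74 in the 9 poor libraries (rho 0.67, permutation p 0.0215 and 0.0592, adjusted 0.134 and 0.302) and 0.82 in the 7 rich ones (rho 0.76, exact permutation p 0.0155 and 0.0571, adjusted 0.124 and 0.302). Without the 2 libraries farthest from the median of App, r was 0.61 and 0.57. The chromosome 7 neighbours Aplp1 and Psenen had r of 0.81 in the poor class (rho 0.37, permutation p 0.0287 and 0.336, adjusted 0.134 and 0.537), which was 0.16 without the 2 libraries farthest from the median of Aplp1 and so rests on those. In the rich class r was 0.70 for this pair (rho 0.71, exact permutation p 0.0629 and 0.0881, adjusted 0.189 and 0.302). Among the 7 rich libraries App and Aplp1 had r of 0.97 (rho 0.82, exact permutation p 0.00238 and 0.0341, adjusted 0.0857 and 0.302), and App and Adam10 0.92 (rho 0.86, exact permutation p 0.00357 and 0.0238, adjusted 0.0857 and 0.302). Without the 2 farthest libraries these were 0.87 and 0.89. In the 9 poor libraries the same pairs had r of 0.14 and 0.29 (permutation p 0.701 and 0.457, adjusted 0.777 and 0.598), and the difference between classes was not tested.

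Over 4 related lists with 61 tested genes, 1 passed for tau in Ch25h+/+ and 2 for Ch25h loss in Tau+, near the shares of all genes (1.56% and 3.55%), and 0 passed in the other comparisons, all in the edgeR quasi-likelihood test. For Ch25h loss in Tau+ DESeq2 called 3 higher and 3 lower, where it called 9.13% of all genes. In Tau- it called 2 higher and 8 lower of 59 with an adjusted p, against 9.25% of all genes. Limma-voom called 6 higher and 2 lower in Tau+ (10.6% of all genes) and 2 higher and 8 lower in Tau- (7.83%). Both tools called only Lgmn for tau in Ch25h+/+, and 0 for tau in Ch25h-/- and for the interaction. Of 17 tested genes in a list of other secretases and partners, Lgmn alone passed with edgeR, higher with tau in Ch25h+/+ and lower with Ch25h loss in Tau+. Lgmn encodes legumain, a lysosomal protease also called delta-secretase. It was at 100, 102, 102 and 105 CPM in Ch25h+/+ Tau- and 138, 122, 119 and 137 CPM in Ch25h+/+ Tau+, with no overlap (log2 fold change 0.33, standard error 0.07, adjusted p 0.0101, edgeR quasi-likelihood test). In Ch25h-/- Tau+ it was at 97.5, 109, 99.1 and 105 CPM, all below Ch25h+/+ Tau+ (log2 fold change -0.33, adjusted p 0.0145, same test), and the interaction of -0.20 did not pass. Lgmn was also lower with Ch25h loss in Tau-, with no overlap, as in 16.2% of all genes (log2 fold change -0.13, adjusted p 0.265, same test). With tau in Ch25h-/- its log2 fold change was 0.14, which did not pass. Without Ch25h+/+ Tau+ replicate 4 neither call of Lgmn held, at log2 fold changes of 0.31 and -0.31 (adjusted p 0.0619 and 0.0626), nor did the second without Ch25h-/- Tau+ replicate 3 (0.0558), all in the edgeR quasi-likelihood test. Fitted to only the 8 libraries compared, both were lost at nearly unmoved log2 fold changes of 0.34 and -0.33 (adjusted p 0.0594 and 0.0964), and the second was lost with the class covariate (log2 fold change -0.40, adjusted p 0.437). All 6 microglial markers were detected, and they summed to between 292 and 312 CPM in Ch25h+/+ Tau-, to between 441 and 559 CPM with tau, and to between 281 and 351 CPM in Ch25h-/-; the part of microglia in the Lgmn values was not tested. The 6 astrocyte markers, all detected, also stood apart in Ch25h+/+ Tau+, with sums between 2046 and 3268 CPM against 1477 to 1850 CPM in the other groups, and their part was not tested either. Mmp24, an eta-secretase of APP, gave 53.2 ± 1.56 CPM (SD, n = 4) without tau and 45.8 ± 2.25 CPM with tau in Ch25h+/+ (log2 fold change -0.22, adjusted p 0.172), and Tspan15, a tetraspanin partner of ADAM10, had a log2 fold change of -0.48 with Ch25h loss in Tau+ (adjusted p 0.0508), both in the edgeR quasi-likelihood test. Mmp24 was also lower with Ch25h loss in Tau-, with no overlap (log2 fold change -0.20, adjusted p 0.113, same test). That difference passed with DESeq2 (0.0433) and was -0.03 with GC-corrected offsets. Tspan15 passed in 5 of 8 other settings, with DESeq2 (adjusted p 0.0154) and limma-voom (0.0113) among them, and was at -0.20 with the class covariate. It also passed in 3 of 16 fits that left out 1 library each.

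Of the 17 other secretase substrates tested, 1 rose and 0 fell with Ch25h loss in Tau+. This was Chl1, a neural adhesion molecule cut by BACE1, at 103, 148, 117 and 114 CPM in the Ch25h+/+ and 136, 172, 168 and 187 CPM in the Ch25h-/- libraries with tau, which overlapped (log2 fold change 0.46, standard error 0.12, adjusted p 0.0484, edgeR quasi-likelihood test). In Tau- the difference was of like size, with 131, 115, 112 and 95.1 CPM in the Ch25h+/+ and 169, 129, 165 and 152 CPM in the Ch25h-/- libraries (log2 fold change 0.44, adjusted p 0.0737, same test). It passed there in 4 of 8 other settings, with DESeq2 (0.0167), limma-voom (0.0384), no filter (0.0222) and only the 8 libraries compared (0.0334), and was 0.07 with the class covariate. The interaction for Chl1 was 0.02 (95% interval -0.34 to 0.39). In Tau+ the call held in 4 of 16 fits that left out 1 library each. It did not hold with the class covariate (log2 fold change 0.17), with GC-corrected offsets (0.29) or with only the 8 libraries compared (0.46). Sez6l, another BACE1 substrate, had a log2 fold change of 0.25 in this comparison (adjusted p 0.0896 in the same test). Sez6l passed with DESeq2 (adjusted p 0.0430), with limma-voom (0.0346) and without Ch25h+/+ Tau+ replicate 2 (0.0260), and its log2 fold change was 0.38 with GC-corrected offsets, where it did not pass. Of the 21 App sorting and adaptor genes and the 6 amyloid-beta degrading enzymes tested, 0 passed in any comparison in the edgeR quasi-likelihood test, with medians between -0.201 and 0.111. For Ch25h loss DESeq2 called 2 sorting genes in Tau+ (Appbp2 and Itm2c), where it called 9.13% of all genes. In Tau- it called 5 (Apbb1, Gga1, Itm2c, Klc1 and Mapk8ip1), against 9.25% of all genes. Limma-voom called Appbp2 in Tau+ (10.6% of all genes) and the same 5 with Bin1 in Tau- (7.83%). Neither tool called a degrading enzyme. At an unadjusted p under 0.05 6 and 7 of the 21 sorting genes and 1 and 2 of the 6 degrading enzymes were counted for Ch25h loss in Tau+ and Tau-, against 23.9% and 20.9% of all genes. The same counts were 3 and 4 of 17 for the other secretases and partners, and 5 and 8 of 17 for the other substrates.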

How the data were processed

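Raw gene counts were deposited as one table of whole-number counts for all 16 libraries. Alignment with STAR 2.7 is named per the submitters' processing notes; the counting program, its annotation and its use of strand are not given in the sources used here. Libraries were grouped by their labels, and replicate numbers follow record order and pair nothing. The members and gene lists were chosen with earlier results of these data known.

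Counts were filtered with filterByExpr, scaled by TMM and tested over 16 libraries with edgeR 4.0.16 (quasi-likelihood, R 4.3.3), with Benjamini-Hochberg adjustment over all genes tested and a threshold of 0.05. The script was tested on simulated data. CPM were computed on TMM-scaled sizes, and correlations used log2(CPM + 0.5). Positions, lengths and GC content came from GENCODE M21 (GRCm38), promoters from RefSeq (GRCm38.p6). Permutation tests used SciPy 1.17.1, exact for 7 libraries and with 100000 permutations for 9.

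All 9 members were named, and from 4 related lists every gene past the threshold and the 2 of smallest p where a list had a call; 1 further gene of the first list is not reported here. Likeness was ranked among genes whose mean log2 CPM reached 3. Libraries with CT010467.1 at 1000 CPM of total counts or more were called rich in ribosomal RNA. Alternatives were other size factors, no filter, a minimum mean of 50 counts, DESeq2 1.42.0, limma-voom (limma 3.58.1), a library class covariate, GC-corrected offsets (loess span 0.5), only the 8 libraries compared, each library left out, CPM on total counts, and joined exons as the length, the last chosen after seeing the data. Depth per library limits counting precision, and intervals are those of the fit at 95%.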

Additional observations from a re-analysis of the deposited data

Results flagged for a closer look

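In 3 of 56 groups of 4 libraries (14 genes), 1 library stood farther from the others than Dixon's critical value at 95% allows, where chance marks about 1 in 20 groups. Psenen was at 46.1 CPM in Ch25h+/+ Tau+ replicate 1, against 30.5 to 32.8 CPM in the other libraries of its group. Aph1a was at 39.1 CPM in Ch25h-/- Tau- replicate 4, against 34.2 to 34.9 CPM. Psen2 was at 17.4 CPM in Ch25h-/- Tau+ replicate 1, against 15.1 to 15.2 CPM.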

How the results depend on the processing

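No paired analysis was possible because neither labels nor columns carry replicate numbers shared between groups. None of the 9 members was called for either tau effect or the interaction under any setting tried. For Ch25h loss in Tau+, 1 member passed (Aph1a) with a mean of at least 50 counts (adjusted p 0.0493, 5.34% of all genes called), with DESeq2 (0.0194) and with limma-voom (0.0187), and 0 to 1 with a library left out. For Ch25h loss in Tau-, 2 passed (Aplp1, 0.0367, and Aph1a, 0.0462) with only the 8 libraries compared (7.27% of all genes called), 1 (Aplp1) with DESeq2 (0.00810) and limma-voom (0.0129), and 0 to 1 with a library left out (Aplp1, 0.0301 without Ch25h+/+ Tau+ replicate 1). The cause was not tested. Of 351 member estimates under other settings, 22 changed sign, and of 720 with a library left out, 45, none of them called.

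Counts over all genes moved more. With the class covariate, the 629 and 182 genes called for Ch25h loss in Tau+ and Tau- became 10 and 0, with GC-corrected offsets 186 and 13, and with limma-voom 1883 and 1388. Leaving out 1 library gave 108 (Ch25h+/+ Tau+ replicate 4) to 1691 (Ch25h-/- Tau+ replicate 1) in Tau+ and 3 (Ch25h+/+ Tau- replicate 1) to 1306 (Ch25h+/+ Tau+ replicate 1) in Tau-. The tau effects ran from 203 to 498 (277 as reported) in Ch25h+/+ and from 2 to 28 (7) in Ch25h-/-, and the interaction from 3 to 57 (6); with a library left out, from 160 to 299, 6 to 13 and 0 to 22.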
